A study of Drosophila melanogaster with 4 samples.

Results

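The genes described here are the small nuclear RNA (snRNA) and small nucleolar RNA (snoRNA) genes of Drosophila melanogaster, examined for chromatin peaks of the homeodomain factor Distal-less (Dll). They were all 301 genes with the biotype snRNA or snoRNA on the nuclear chromosome arms, out of 18277 annotated genes once transposable elements were left out. Each gene was taken with 500 bp on either side, and a gene counted as holding a peak when the peak's summit, its highest point, lay in that window. The members were split into 32 snRNA genes, 247 snoRNA genes that lie inside a longer host gene on the same strand (intronic snoRNA), and 22 other snoRNA genes. The name intronic is loose, since 20 of the 247 (8.10%) overlap an annotated exon of their host. The peaks came from ChIP-seq of whole embryos aged 0 to 24 h from flies with a Dll-eGFP fusion transgene, precipitated with an anti-GFP antibody after sonication to 200 to 800 bp. All 4 samples form 1 group of biological replicates, with no second condition, and they mix every cell type and age of the embryo. The control library was not analysed here.

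snRNAs are the RNA cores of the spliceosome: U1 and U2 recognise the 5′ splice site and the branch point, U4, U5 and U6 join them to form the catalytic particle, and U11, U12, U4atac and U6atac serve a rare class of introns. U7 directs the processing of histone mRNA 3′ ends, and 7SK holds the elongation factor P-TEFb in an inactive complex. RNA polymerase II makes most of them, while U6, U6atac and 7SK are made by RNA polymerase III, and in flies both kinds share a proximal sequence element (PSEA) in the promoter. Most fly snoRNAs have no such promoter. They are cut from introns of host genes, many of which encode ribosomal proteins, or of noncoding hosts (the Uhg genes), and they guide methylation (box C/D) or pseudouridylation (box H/ACA) of other RNAs.

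The promoters of the 7SK and U6 genes show what the snRNA genes share and how their copies differ, because these were the snRNA classes with peaks past the deposited threshold. The 100 bases before each 5′ end are given 5′ to 3′ on the gene's strand from the RefSeq release 6 sequence, which has dm6 coordinates. They span chr3R:7474997-7475096 (minus strand) for 7SKa, chr3R:23432769-23432868 (plus) for 7SKb, chr3R:24555988-24556087 (plus) for U6:96Aa, chr3R:24556592-24556691 (plus) for U6:96Ab and chr3R:24557115-24557214 (plus) for U6:96Ac. Capitals mark the PSEA core TTCCCAA, the TATA box word TATAAA, the word CGATAT and the related word TTCTCAA on either strand.
7SKa: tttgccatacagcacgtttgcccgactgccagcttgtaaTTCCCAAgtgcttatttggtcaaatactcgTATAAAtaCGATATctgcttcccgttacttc
7SKb: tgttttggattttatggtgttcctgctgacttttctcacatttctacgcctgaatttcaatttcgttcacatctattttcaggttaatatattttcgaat
U6:96Aa: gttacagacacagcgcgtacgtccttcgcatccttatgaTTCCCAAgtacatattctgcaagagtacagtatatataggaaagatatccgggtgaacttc
U6:96Ab: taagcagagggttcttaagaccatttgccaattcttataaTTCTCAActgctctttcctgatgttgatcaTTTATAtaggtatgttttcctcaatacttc
U6:96Ac: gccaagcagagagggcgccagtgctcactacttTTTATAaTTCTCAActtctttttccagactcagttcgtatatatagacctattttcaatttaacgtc

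From 250 bases before to 50 bases after the 5′ end, TTCCCAA occurred on either strand in 26 of 32 snRNA genes (81.2%), in 11 of 247 intronic snoRNA genes (4.45%) and in 3 of 22 other snoRNA genes (13.6%), against 968 of all 18277 gene starts (5.30%). In all 26 of those snRNA genes a copy on the gene's strand began at positions -61 to -55, counted from the 5′ end. The 6 snRNA genes without it were LU, U4:25F, U2:38ABb, 7SKb, U6:96Ab and U6:96Ac. TTCTCAA, looked for after the sequences had been seen, began at positions -64 to -57 in each of these except 7SKb. TATAAA was found in 15 of 32 snRNA genes (46.9%), against 43.9% of all gene starts. The 2 annotated 7SK genes were 55.2% identical over their transcripts, whereas the 3 U6 transcripts were the same sequence.

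The next sequences show the strongest summit of any member window, a lone snoRNA gene with its summit at the 5′ end, and the hosts chosen because TATCGATA lay within 50 bp of the conservative summit. Me18S-A1576 is cut from an intron of the noncoding host Uhg2. Its summit region is given as 50 bases to each side of the conservative summit, at chr2L:9895108-9895208 on the minus strand of the host, with the homeodomain core TAATTA in capitals. Psi28S-3342 is a lone snoRNA gene, with its 100 upstream bases at chrX:5524466-5524565 (minus). The ribosomal protein genes RpS12, RpS6 and RpL10Ab host Me28S-A774b, Or-aca2 and Psi18S-920. Their upstream 100 bases lie at chr3L:13023252-13023351 (plus), chrX:7901332-7901431 (minus) and chr3L:11822751-11822850 (plus), with TATCGATA and CGATAT in capitals.
Uhg2 summit: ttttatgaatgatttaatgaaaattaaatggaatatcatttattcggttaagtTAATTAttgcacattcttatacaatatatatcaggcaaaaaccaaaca
Psi28S-3342: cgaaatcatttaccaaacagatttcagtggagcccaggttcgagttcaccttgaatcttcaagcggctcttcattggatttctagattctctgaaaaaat
RpS12: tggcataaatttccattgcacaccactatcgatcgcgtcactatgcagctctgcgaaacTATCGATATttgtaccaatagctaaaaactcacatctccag
RpS6: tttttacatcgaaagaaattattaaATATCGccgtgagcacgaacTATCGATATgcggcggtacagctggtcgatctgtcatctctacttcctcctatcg
RpL10Ab: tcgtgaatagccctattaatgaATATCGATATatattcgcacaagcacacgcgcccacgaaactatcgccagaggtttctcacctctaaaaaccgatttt

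Dll peaks at snRNA and snoRNA genes were few. A summit of the series-level conservative list, which was made from all 4 samples and holds 5203 peaks on the nuclear arms, lay in the windows of 19 of 301 members (6.31%), against 31.2% of all genes. The members comprised 3 of 32 snRNA genes (9.38%), 13 of 247 intronic snoRNA genes (5.26%) and 3 of 22 other snoRNA genes (13.6%). Most genes are longer than the members, so windows of 500 bp on either side of the 5′ end alone were counted too. They held a conservative summit in 2 of 32 snRNA genes (6.25%), 12 of 247 intronic snoRNA genes (4.86%) and 3 of 22 other snoRNA genes (13.6%), against 25.7% of all genes. Per length of DNA the members stood above the genome as a whole. Their merged windows held 58.3, 97.2 and 187 conservative summits per Mb in snRNA, intronic and other snoRNA genes, against 37.8 over all arms. These rates came from 2, 15 and 4 summits in 0.0343, 0.154 and 0.0214 Mb. Those of snRNA and other snoRNA genes thus rest on few peaks. tRNA genes, which like U6 and 7SK are made by RNA polymerase III, had a conservative summit within 500 bp of the 5′ end in 122 of 290 (42.1%).

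The replicates' own thresholded lists, which keep peaks with a deposited score (scaled irreproducible discovery rate) of at least 830, held 3609, 3610, 2523 and 2884 nuclear peaks. snRNA genes with a summit made up 12.5% in replicate 1 and 3.12% in each of replicates 2, 3 and 4, so the class rested on 1 gene outside replicate 1. Intronic snoRNA genes gave 3.24, 2.43, 3.24 and 2.83% in replicates 1 to 4, and other snoRNA genes 13.6, 22.7, 9.09 and 13.6%. Over all genes the shares were 25, 25.9, 19.8 and 21.7%. All 3 classes of member lay below all genes in every replicate when the whole gene was taken. In windows around the 5′ end alone, other snoRNA genes stood at 22.7% in replicate 2, against 21.2% of all genes, and each class was below all genes in the other replicates. The means were 5.47% ± 4.69 for snRNA genes, 2.94% ± 0.388 for intronic and 14.8% ± 5.72 for other snoRNA genes (SD, n = 4). The snRNA share exceeded the intronic snoRNA share by 2.53 ± 4.50 percentage points and was higher in 3 of 4 replicates (two-sided exact sign-permutation test, p = 0.25; Benjamini-Hochberg adjusted over 3 differences, 0.25). That test cannot go below 0.125 with 4 replicates, so none of its differences can pass 0.05. Without replicate 1 the mean snRNA share was 3.12% and the difference 0.291 points.

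**Figure D1:**
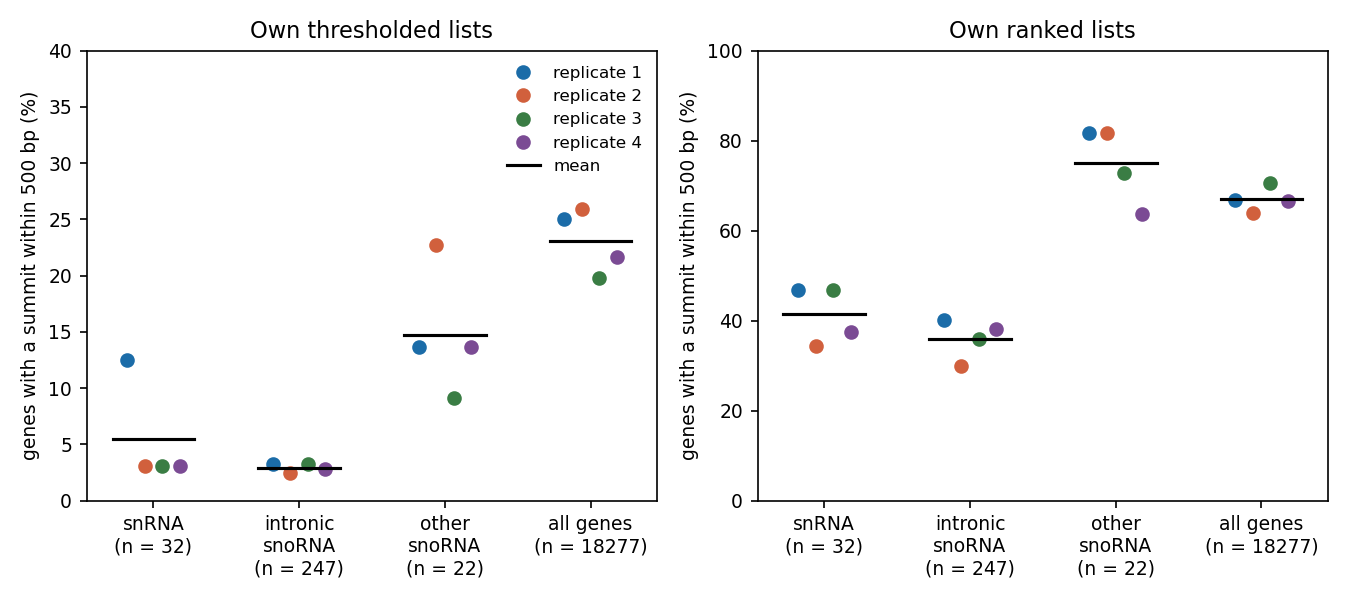
Share of genes (y axis, %) with a peak summit within 500 bp of the gene, in the 3 classes of member and in all genes, for each replicate's own thresholded list (left) and own ranked list (right). Points are replicates and lines are their means; in the thresholded lists each class of member lies below all genes in every replicate with these whole-gene windows (with 5′ end windows, other snoRNA genes do not in replicate 2), while in the ranked lists the other snoRNA genes reach 81.8%.

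By the names of the snoRNAs, a conservative summit lay at 6 of 106 pseudouridylation guides (5.66%), 6 of 77 methylation guides (7.79%) and 0 of 16 Cajal body RNAs (scaRNA), against 31.2% of all genes. Among orphan snoRNAs, whose names give no target, it lay at 1 of 5 H/ACA genes spelled Or-aca (20%). It lay at 1 of 13 of the C/D kind (7.69%), and the remaining names had 2 of 52 (3.85%). Those names include Or-ACA6, Or-ACA7 and Or-ACA8, orphan H/ACA genes spelled in capitals, none with a conservative or own thresholded summit. The 5 genes spelled Or-aca averaged 30% ± 11.5 in the own thresholded lists (SD, n = 4), or 1 to 2 genes per list. Both Or-aca shares thus leave out part of the orphan H/ACA genes. Membership was uneven: 279 of 301 members had a summit in none of the 4 own thresholded lists, 10 in 1, 2 in 2, 5 in 3 and 5 in all 4. At least 3 lists held a summit for 1 of 32 snRNA, 6 of 247 intronic and 3 of 22 other snoRNA genes, against 20.7% of all genes, and all 4 lists did for 1, 4 and 0 of them, against 16.9% of all genes. In the far longer ranked lists (39011 to 44390 nuclear peaks, scores down to 18), snRNA genes reached 46.9, 34.4, 46.9 and 37.5% in replicates 1 to 4. Intronic snoRNA genes reached 40.1, 30.0, 36.0 and 38.1%, and other snoRNA genes 81.8, 81.8, 72.7 and 63.6%. All genes stood at 66.8, 64, 70.5 and 66.5%. A ranked summit in all 4 replicates was found for 6 of 32 snRNA, 23 of 247 intronic and 13 of 22 other snoRNA genes, against 51.8% of all genes.

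7SKa, on 3R at 7474553 to 7474996 (minus strand), was the snRNA gene with a summit in all 4 own thresholded lists. The summits lay inside the transcript, 201, 118, 205 and 192 bp downstream of its 5′ end in replicates 1 to 4, and the conservative summit lay at 141 bp. By signal they ranked 42.1, 34.4, 58.8 and 54.0% from the top of their lists, and 27.3% from the top of the conservative list. The peak was thus of middle strength in every replicate, and replicate 4 held a second, weak summit 8 bp upstream of the 5′ end (97.5% from the top). The nearest start of another gene was 1010 bp or more away from the downstream summits. 7SKb had no thresholded summit, and its ranked summit in replicate 3 stood 71.1% from the top.

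The 3 U6 genes lie in a cluster on 3R. A conservative summit lay 45 bp inside U6:96Ac (45.9% from the top), and 1 replicate, replicate 1, had it in its thresholded list (35 bp inside, 62.7% from the top). The window of U6:96Ab holds that same summit. In the ranked lists a summit in the U6:96Ac window stood at 5.42, 6.21, 5.19 and 6.97% from the top in replicates 1 to 4. The ranked signal was thus present in every replicate although the threshold was passed in 1. U6:96Aa, inside the Esyt2 gene, had thresholded summits in replicate 1 alone, 121 bp upstream and 82 bp downstream of its 5′ end, near the foot of the list (93.0 and 95.2%). The U6 transcripts being alike, their reads cannot be assigned by transcript sequence, although 90.2 to 93.8% of the 50-base words in the 3 windows occur once in the reference. What this did to the peaks was not tested.

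None of the snRNA genes made by RNA polymerase II had a thresholded or conservative summit: 0 of 5 U1, 0 of 6 U2, 0 of 3 U4 and 0 of 7 U5 genes, and none of the single genes U7, U11, U12 and U4atac. The polymerase III gene U6atac and the gene LU had none either. In the ranked lists 5 of 5 U1, 5 of 6 U2, 2 of 3 U4 and 2 of 7 U5 genes had a summit in at least 1 replicate. The share of all genes in at least 1 ranked list was not counted, but each single list held 64 to 70.5% of them. U1:95Ca, U4:39B and U5:63BC had a ranked summit in all 4, as did 51.8% of all genes. U4:39B ranked 23.9, 18.9, 62.3 and 20.3% from the top in replicates 1 to 4, and U1:95Ca 29.6, 32.8, 28.7 and 88.0%. Both ranked below 7SKa, which stood at 3.57, 3.27, 3.47 and 4.07% from the top of the same lists. Of the 26 snRNA genes with TTCCCAA, 7SKa and U6:96Aa had a thresholded summit in any replicate. Of the 6 without it, U6:96Ab and U6:96Ac did, through the same summit in replicate 1. Some U2 windows are poorly unique, with 43.1% of 50-base words occurring once around U2:34ABc, against a median of 95.4% over the 32 snRNA windows.

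Of the 22 other snoRNA genes, 5 had a conservative or own thresholded summit and 17 had neither. The share of all genes with a summit in any of these lists was not counted, but each single list held 19.8 to 31.2% of them. At 4 of these 5 snoRNA genes a summit lay within 75 bp of the gene's own 5′ end. Psi28S-3342 (X, 5524302 to 5524465, minus), named as a guide for pseudouridylation of 28S rRNA, had its conservative summit 1 bp from the annotated 5′ end, 42.7% from the top of the list. Its thresholded summits lay 39 bp upstream, 34 bp downstream and 39 bp upstream of that end in replicates 1, 2 and 4, ranking 71.5, 43.5 and 72.7%. The nearest start of any other gene was 6964 bp from the conservative summit. Psi18S-176 (2R) had its summits 75, 75 and 69 bp upstream of its 5′ end in replicates 1, 2 and 3, ranking 39.4, 36.1 and 39.2%, and the conservative one 76 bp upstream (27.0%). The positions hardly differed between these replicates. Psi28S-2622 (3L) had conservative summits 28 bp upstream (55.7%) and 171 bp downstream (95.4%), and thresholded ones in replicates 1 and 2 at 13 and 133 bp upstream, ranking 70.4 and 89.9%. The nearer start for the one in replicate 2 was that of sncRNA:CR43701, 34 bp away.

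U3:54Ab (2R), a copy of the U3 RNA that takes part in cleaving the ribosomal RNA precursor, had thresholded summits in replicates 2, 3 and 4 at 45.9, 75.9 and 77.6% from the top, but no conservative one. Those summits lay 248 to 279 bp upstream of U3:54Ab and only 38 to 69 bp from the start of tRNA:Leu-AAG-1-3. Its window is also less unique, with 63.1% of 50-base words occurring once. Or-aca4 (2R), named here after its values were seen, had summits 28 bp downstream and 4 bp upstream of its 5′ end in replicates 2 and 4.

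**Figure D2:**
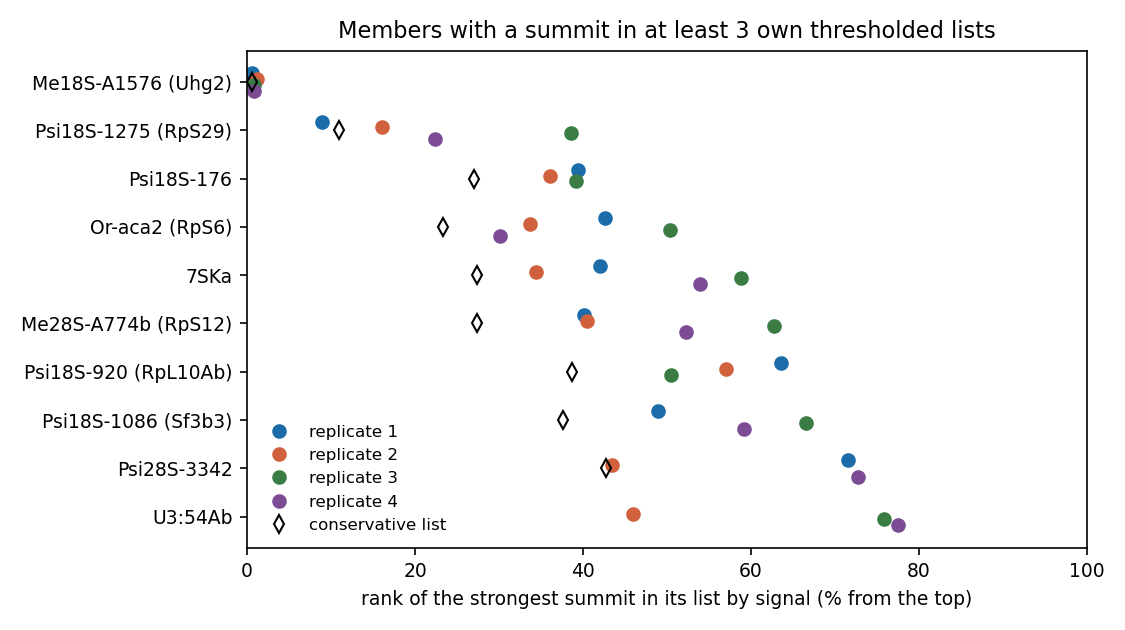
Rank of the strongest summit (x axis, % from the top of its list by signal) for the 10 members with a summit in at least 3 own thresholded lists (rows, host gene in brackets). Filled points are replicates and open diamonds the conservative list; the Me18S-A1576 window stays at 0.554 to 1.22% in all 4 replicates, while most others lie between 30.1 and 77.6%.

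The intronic snoRNA genes with summits in all 4 own thresholded lists were 4, in 4 host genes. Me18S-A1576, named as a methylation guide for 18S rRNA, held the strongest summit of any member window: 0.554, 1.22, 0.832 and 0.867% from the top in replicates 1 to 4 and 0.538% in the conservative list. The conservative summit lay 251 bp upstream of the snoRNA, at -155 bp relative to the start of Uhg2 and 129 bp from the start of the protein-coding gene Bka. The replicate summits lay 253, 255, 246 and 272 bp upstream of the snoRNA, all in this space between both starts. Psi18S-1275, in RpS29, ranked 8.87, 16, 38.6 and 22.4% from the top, with its conservative summit 30 bp upstream of the RpS29 start. Or-aca2, in RpS6, ranked 42.6, 33.7, 50.4 and 30.1%, with its stronger conservative summit 90 bp upstream of the RpS6 start and a weaker one 185 bp from the start of bys. Me28S-A774b, in RpS12, ranked 40.2, 40.5, 62.8 and 52.3%, with its conservative summit 81 bp upstream of the RpS12 start. Psi18S-1086, in the splicing factor gene Sf3b3, and Psi18S-920, in RpL10Ab, had summits in 3 replicates each, with conservative summits 155 and 46 bp upstream of the host's start.

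**Figure D3:**
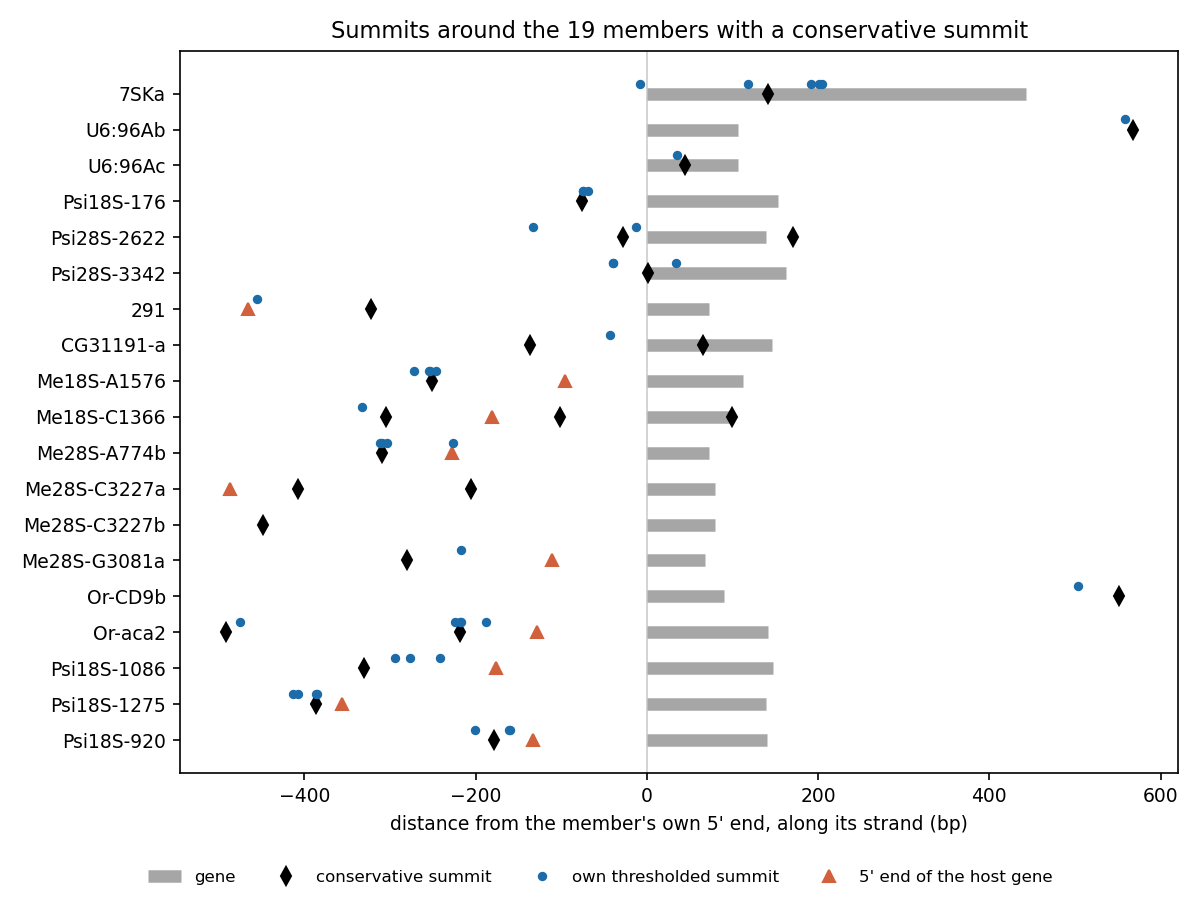
Positions of summits (x axis, bp from the member's own 5′ end along its strand) for the 19 members with a conservative summit, snRNA genes first, then other and intronic snoRNA genes. Diamonds are conservative and small points own thresholded summits, grey bars are the genes and triangles the 5′ end of the host where it lies in the plotted range; most summits of lone snoRNA genes sit near 0, while most of those of intronic snoRNA genes sit beside the triangle.

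Summits in intronic snoRNA windows mostly lay at the start of the host rather than at the snoRNA. Of the 23 intronic snoRNA genes within 500 bp of their host's 5′ end, 10 held a conservative summit (43.5%). Of the 224 farther away, 3 did (1.34%). By construction, windows of the near genes include the host's 5′ end and those of the far ones do not, so this contrast partly restates the window. Within 500 bp of their own 5′ end, 52 of 92 hosts (56.5%) held a conservative summit, and 31.2% of all genes held one in whole-gene windows. In the own thresholded lists the shares were 27.2% ± 2.17 for the near genes and 0.446% ± 0.365 for the far ones (SD, n = 4). Between 501 and 1000 bp, 1 of 40 genes held a conservative summit (2.5%) and the own thresholded share was 0.625% ± 1.25. Among the 71 genes 1001 to 2000 bp and the 77 genes 2001 to 5000 bp from the host start, none held a summit in the conservative list or in any own thresholded list. Beyond 5000 bp, 2 of 36 held a conservative summit (5.56%) and the own share was 2.08% ± 1.39, so the share did not fall steadily with distance. The 3 far genes were Me28S-C3227b in Uhg5, Or-CD9b and CG31191-a, which were named after their values were seen. Or-CD9b lies in Nop60B, and its summit was 89 bp from the start of ocm. At CG31191-a both summits, 65 bp inside and 137 bp upstream, had no start of another gene within 1174 bp. Over all member windows, 21 distinct conservative summits were found, 9 of them nearest to the start of a snRNA or snoRNA gene, 9 to that of the host and 3 to that of another gene, at a median distance of 89 bp.

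**Figure D4:**
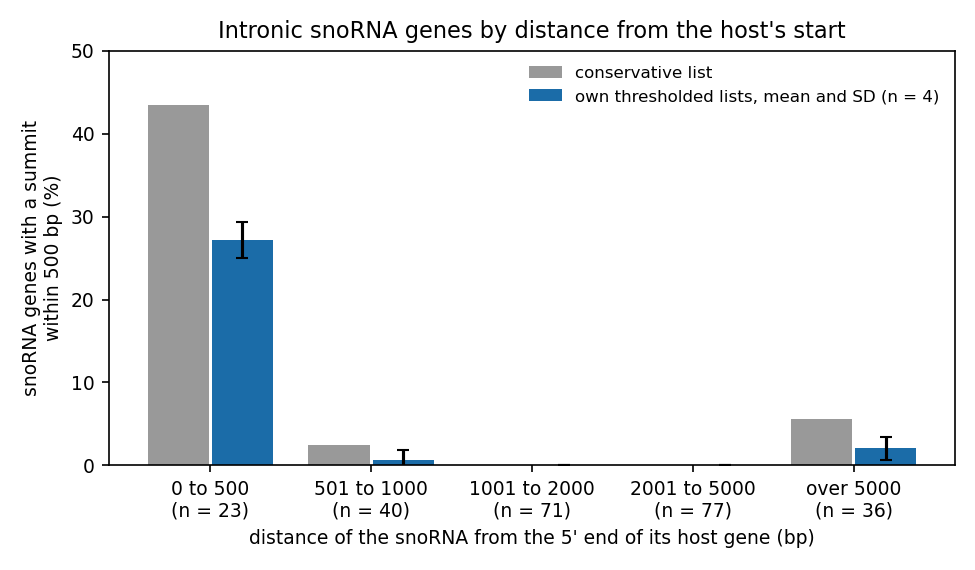
Share of intronic snoRNA genes (y axis, %) with a summit within 500 bp, by distance from the 5′ end of the host gene (x axis, bp). Grey bars show the conservative list and blue bars the mean and SD of the 4 own thresholded lists; the bars stand at 43.5 and 27.2% within 500 bp, at 0 from 1001 to 5000 bp, and at 5.56 and 2.08% beyond that.

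The host genes themselves often had a peak at the promoter. The 247 intronic snoRNAs lie in 92 hosts, 82 protein-coding and 10 noncoding, and 27 of them encode ribosomal proteins by their symbols. Within 500 bp of the 5′ end, 52 of 92 hosts (56.5%) held a conservative summit, against 31.1% of the 13968 protein-coding genes. In the own thresholded lists host promoters gave 50, 48.9, 42.4 and 41.3% in replicates 1 to 4, against 24.9, 25.7, 19.7 and 21.6% of protein-coding promoters. The difference was 22.7 ± 2.25 percentage points and was positive in 4 of 4 replicates (two-sided exact sign-permutation test, p = 0.125, the smallest it can give; adjusted 0.188). In the ranked lists the shares were 84.8, 88.0, 83.7 and 81.5% of host promoters, against 59.5, 58.5, 60.1 and 57.9% of protein-coding promoters. That difference was 25.5 ± 2.80 points, again positive in 4 of 4 replicates (exact p = 0.125; adjusted 0.188).

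Ribosomal protein hosts had a promoter summit in 41.7% ± 5.56 of 27 genes per own thresholded list, against 49.6% ± 5.08 of the 65 ribosomal protein genes that host no snoRNA (SD, n = 4). The other 55 protein-coding hosts stood at 51.4% ± 6.36 and the 10 noncoding hosts at 25% ± 5.77, against 23.0% ± 2.81 of all protein-coding promoters. These differences among hosts were not tested. Among hosts with a promoter summit in all 4 own thresholded lists, Uhg2, RpS7 and hts had the strongest ones. RpS7 carries 7 snoRNAs and encodes a small-subunit protein, and hts is an adducin gene with 1. Their mean ranks were 0.868% ± 0.273, 1.77% ± 1.00 and 2.14% ± 1.16 from the top (SD, n = 4). RpL13A had no thresholded or conservative promoter summit. Yet it stood at 0.153, 0.241, 0.119 and 0.229% from the top of the ranked lists in replicates 1 to 4. In those lists hts stood at 0.0912, 0.120, 0.207 and 0.209%. A missing thresholded summit thus did not always go with a low ranked signal. RpS7, hts and RpL13A were named after their values were seen. Of the 5 hosts with the most snoRNAs, also named then, RpS5a (14 snoRNAs) had a promoter summit in 4 own lists, Arpc2 (17) in 3, dom (15) in 2, and Uhg1 (16) and Uhg5 (11) in 1 each. The window of an intronic snoRNA seldom reached the host start, which lay a median of 1788 bp away. Of 77 snoRNAs whose host promoter had a summit in all 4 own lists, 4 had a summit in their own window in all 4 lists and 69 in none. At those 4 the host promoter's own summit fell in the window, so the counts do not compare separate peaks.

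**Figure D5:**
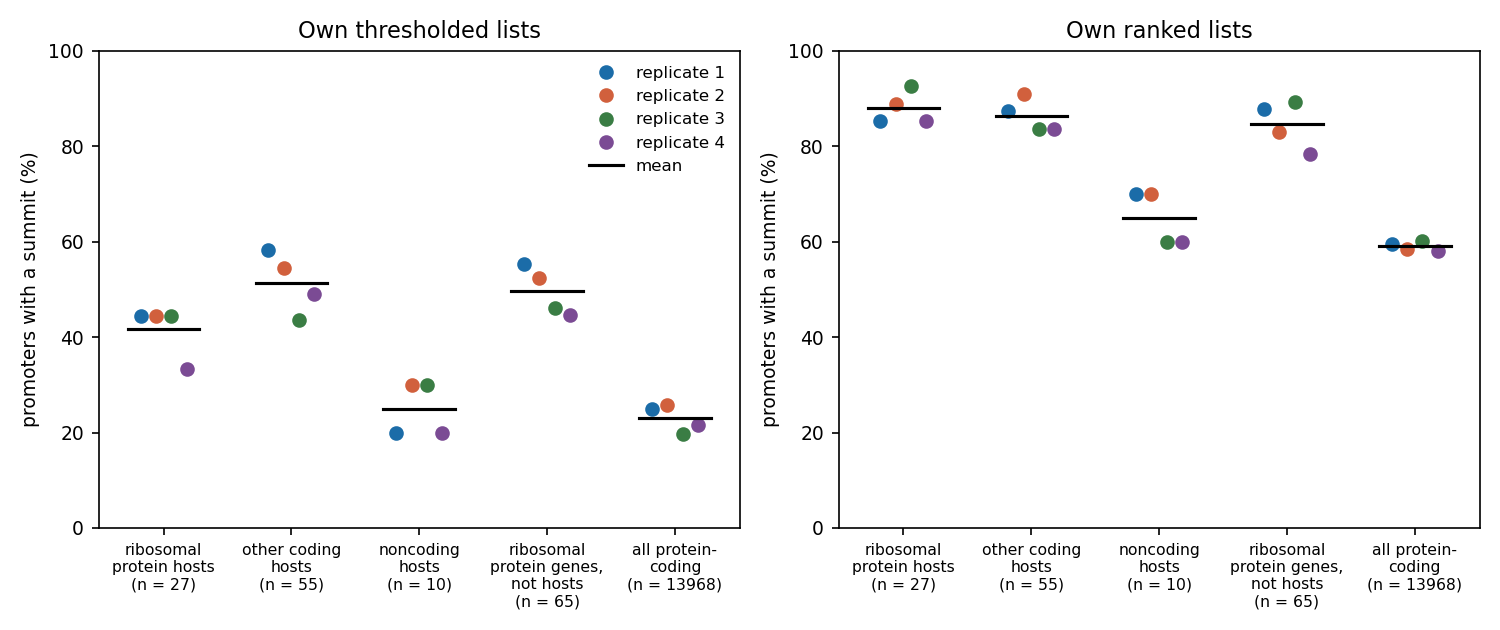
Share of promoters (y axis, %) with a summit within 500 bp of the gene's 5′ end in the own thresholded (left) and ranked (right) lists, for 3 kinds of snoRNA host, for ribosomal protein genes that host none and for all protein-coding genes. Points are replicates and lines are their means; protein-coding hosts lie above all protein-coding promoters in every replicate, as do ribosomal protein genes without a snoRNA.

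Host promoters were also searched for sequence words. TATCGATA, the core of the element bound by the promoter factor DREF, occurred from 250 bases before to 50 bases after the 5′ end, on either strand, in 18 of 92 hosts (19.6%), against 9.36% of protein-coding genes and 7.48% of all gene starts. It was in 3 of 247 intronic snoRNA windows of that kind (1.21%) and in none of the snRNA or other snoRNA windows. All 18 hosts with the word had a conservative promoter summit, against 34 of the 74 hosts without it (45.9%). Among protein-coding genes, 1113 of 1307 with the word had one (85.2%), against 25.5% of those without. In the own thresholded lists, 18, 16, 17 and 17 of the 18 hosts with the word had a summit in replicates 1 to 4. The mean share of hosts was 94.4% ± 4.54 with the word and 33.8% ± 5.52 without it (SD, n = 4). Over all protein-coding genes it was 77.7% ± 3.98 with the word and 17.3% ± 2.70 without it, so the contrast was not particular to hosts. The hosts included RpS6, RpS7, RpS12, RpS29, RpL10Ab, Sf3b3, Nop60B, Prp39 and hts. CGATAT overlaps TATCGATA where a T follows, as in the RpS12 and RpS6 sequences above.

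The homeodomain core TAATTA, the kind of site Dll recognises, was in 23 of 92 host windows (25%), against 20.4% of protein-coding genes, and in 1 of 32 snRNA, 41 of 247 intronic and 2 of 22 other snoRNA windows (3.12, 16.6 and 9.09%), against 19.7% of all gene starts. Hosts with it had a conservative promoter summit in 15 of 23 (65.2%), against 37 of the 69 without it (53.6%). Over all protein-coding genes the shares were 35.1% with the word and 30.0% without it. Within 50 bp of the 21 summits in member windows it occurred 3 times (14.3%), at Me18S-A1576, Psi18S-1086 and CG31191-a, against 7.23% of all conservative summits. TATCGATA occurred at 3 of the 21 as well (14.3%), against 11.7% of all conservative summits, and TTCCCAA at 0 of 21, against 1.67%. CGATAT was the most frequent word there, at 6 of 21 (28.6%), against 16.1%. TATAAA was at 3 of 21 (14.3%), against 14.1%. GAGAGAG, GGTCACAC and TTCTCAA were at 0 of 21, against 3.92, 2.73 and 1.23%. The word GGTCACAC was in 11 of 92 hosts (12%), against 7.69% of protein-coding genes and 6.08% of all gene starts, and GAGAGAG in 2 of 92 hosts (2.17%), against 5.86% of protein-coding genes and 5.58% of all gene starts.

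The genes for the proteins that work with these RNAs more often had a peak than the RNA genes did. Of 22 listed, 21 were matched, 2 of them by an older symbol. A conservative promoter summit was found at 17 of 21, against 31.1% of protein-coding promoters. The own thresholded lists had one at 14, 14, 12 and 12 in replicates 1 to 4, against 24.9, 25.7, 19.7 and 21.6%. All 4 of these lists had one at 11, against 16.9% of protein-coding promoters. SmD3, snf and SmB, which encode proteins of the spliceosomal particles, ranked 13.3% ± 3.65, 16.7% ± 4.27 and 21.1% ± 10.5 from the top (SD, n = 4). SmF had a summit in 1 own list (97.7%) and snRNP-U1-70K in none. Nop60B, the pseudouridine synthase of the H/ACA particle and itself a snoRNA host, ranked 17.7% ± 2.69. The other H/ACA protein genes stood lower, Gar1 with summits in 3 own lists (50.4, 70.0 and 75.6%), NHP2 in 1 (84.2%) and Nop10 in 1 (87.0%), and each had a conservative summit. Of the SNAP complex that binds the PSEA, Pbp49 and Pbp95 had summits in all 4 own lists and Pbp45 in none. Of the box C/D protein genes, hoip had summits in 2 own lists (68.7 and 63.8%) and a conservative one (54.1%), whereas Fib, nop5 and Nop56 had none in an own thresholded list and Nop56 had a weak conservative summit (81.1%).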

How the data were processed

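Peak lists of 4 biological replicates were analysed. Coordinates are on dm6, per the labels. Not given in the sources used here are aligner, peak caller and how the signal, the authors' deposited peak height, was normalized. The deposited score is a scaled irreproducible discovery rate, and summits come from the deposited offset from the peak's start. Own lists derive from that replicate's alignments, per the deposited descriptions. Signal was ranked within a list and never compared between lists. Without read counts, each sample's depth is unknown, and precision rests on the 4 replicates. Genes came from Ensembl release 115 and sequence from RefSeq release 6.

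Members, lists and words were chosen with earlier results of these data known. Named genes were all snRNA genes by class, snoRNA genes with a summit in all 4 own thresholded lists by host, and lone snoRNA genes with a conservative summit. Others, such as snoRNA genes with a summit in 3 lists, hosts and the far genes, were named after their values were seen. Differences were tested over replicates with an exact permutation test of signs. Counting was tested on simulated peaks. Alternatives were the window, the overlap rule, the peak set, the list, the host definition, the promoter and leaving out each replicate. Scripts used Python 3.11.15, NumPy 2.4.6, Biopython and matplotlib 3.10.9.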

Additional observations from a re-analysis of the deposited data

Results flagged for a closer look

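Among 18 sets of 4 replicate values looked at for a value far from the others, 3 had one, where chance gives about 1 in 20 sets of untied values. The share of snRNA genes with a thresholded summit was 12.5% in replicate 1 and 3.12% in each other replicate, replicate 1 being the list with the 3 U6 genes. With the other values tied, any differing share would have stood out, so this set says little about how far replicate 1 lay from the rest. The summit in 7SKa lay 118 bp inside the gene in replicate 2, against 192 to 205 bp in the others. The summit at Me28S-A774b lay at -226 bp from the snoRNA's 5′ end in replicate 3, 2 bp from the RpS12 start, against -304 to -312 bp in the others.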

How the results depend on the processing

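Of 107 values under other settings, 84 stayed within 1 SD between replicates, within 1.5 times a count or on the same side of the test's threshold, 22 moved and 1 reversed. No difference can cross that threshold with 4 replicates or fewer, so a difference could only reverse. One that did not reverse was counted as unchanged however far it moved. The limits are also wide for the snRNA genes, whose share was 1.56% and exceeded the intronic share by 0.0443 points in the upper 50% of peaks by signal. Both host promoter differences kept their sign under each promoter, host and replicate setting run. Intronic snoRNA values depended on the window. Of the 21 distinct conservative summits in all member windows, 9 were nearest to a host start, and whether this made the values depend on the window was not tested. With 250 bp, 5 genes had a conservative summit, the mean own share was 1.32% and 2 genes had a summit in at least 3 own lists. With 1000 bp these were 50 genes, 13.0% and 26, 2 snRNA genes reached 3 own lists, and the snRNA share minus the intronic share turned to -4.36 points (exact p = 0.25). With overlap of the peak interval they were 22, 6.38% and 13, and 2 snRNA genes. Counting only summits nearest to a snRNA or snoRNA start, they were 4, 0.101% and 0. In the upper 50% of peaks by signal they were 8, 1.52% and 3, with 0 snRNA genes in 3 own lists. With snoRNA genes called intronic in protein-coding hosts only, 8 intronic and 8 other snoRNA genes had a conservative summit. The series-level lists of 4781 and 6220 peaks each gave 5 other snoRNA genes. After seeing the data, windows around the 5′ end were added for the member counts and shares, and protein-coding hosts alone for the host promoter differences. Neither moved the values it was run on past those limits, which for a difference only a change of sign could cross. Leaving out each replicate gave mean snRNA shares of 3.12 to 6.25% and a snRNA minus intronic difference of 0.291 to 3.42 points. Pairing between groups of samples was not possible because there is 1 group. The differences between gene classes were paired, each being taken within a replicate. With 4 replicates the exact sign-permutation test cannot pass 0.05, and the snRNA counts rest on few genes.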
